A study of Mus musculus with 6 samples.

Results

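*S100a8*, *S100a9*, *Saa3* and *Lcn2* were followed by cell type, diet and day in single-cell RNA-seq libraries of mouse tibialis anterior muscle (TAM). They are 4 of the 12436 genes listed in the files, chosen by symbol because they are known together as inflammatory genes and because earlier results of these data were in view. All mice were males on a mixed B6;129 background with the allele tm1(Fucci2aR)Jkn, a fluorescent cell cycle reporter, at the Gt(ROSA)26Sor locus, and were 3 to 5 months old when the diets began. They came from a cross with *Pax7*-Cre mice, and those used for sequencing carried no Cre. Hypothyroid mice ate an iodine-deficient diet with 0.15% propylthiouracil (PTU, an inhibitor of thyroid hormone synthesis). Control mice ate a matched diet that held iodine and no PTU. The diets were fed for 3 weeks before the injury and went on after it. TAM was taken uninjured (day 0) or at 5 and 14 days post injury (dpi) with cardiotoxin, a snake venom protein that lyses muscle fibers, given at 50 µg/ml into the right muscle. Cells of 3 mice were pooled per library, and each of the 6 groups has 1 library, so no group has a replicate library, nothing was tested between groups, and the spread between mice is unknown. The labels also give the day as the batch, so day and batch cannot be told apart.

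S100A8 and S100A9 are small calcium-binding proteins that pair as calprotectin, make up much of the cytosolic protein of neutrophils, and act as alarmins on Toll-like receptor 4 and RAGE when released. SAA3 is a serum amyloid A protein made at the site of inflammation rather than mainly in the liver, by stromal cells, adipocytes and macrophages among others. LCN2 (lipocalin 2) binds bacterial siderophores, is stored in neutrophil granules, and is made by epithelial and stromal cells under IL-1, IL-17 and IL-6 signaling. After muscle injury, neutrophils enter first and are followed by monocytes and macrophages, while fibro-adipogenic progenitors (FAPs), the PDGFRA-positive mesenchymal cells of muscle, expand and remodel the matrix.

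On build mm39 the files place *S100a8* on the plus strand of chromosome 3 at 90576285 to 90577342, and *S100a9* on the minus strand of the same chromosome at 90599939 to 90603028. The genes lie 22596 bases apart and point toward each other, with 0 annotated genes wholly between them. *Saa3* is on the minus strand of chromosome 7 at 46361422 to 46365124, and *Lcn2* on the minus strand of chromosome 2 at 32274645 to 32278264. Their promoters are shown because the 4 genes are known as targets of C/EBP factors, and because they were high in different cells of 1 library. Each sequence runs 5′ to 3′ on the gene's strand from 250 bases before the RefSeq start to 6 bases into the transcript (RefSeq, build GRCm38.p6, so positions differ from mm39). Capitals mark TATAAA or a C/EBP-like match (TTGCNNAA), each searched on both strands.
S100a8, chr3:90668821-90669076, plus strand: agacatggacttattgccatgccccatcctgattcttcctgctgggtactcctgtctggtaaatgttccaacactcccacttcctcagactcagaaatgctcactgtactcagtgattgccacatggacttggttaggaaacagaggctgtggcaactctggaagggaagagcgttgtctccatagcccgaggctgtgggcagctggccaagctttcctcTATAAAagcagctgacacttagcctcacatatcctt
S100a9, chr3:90695716-90695971, minus strand: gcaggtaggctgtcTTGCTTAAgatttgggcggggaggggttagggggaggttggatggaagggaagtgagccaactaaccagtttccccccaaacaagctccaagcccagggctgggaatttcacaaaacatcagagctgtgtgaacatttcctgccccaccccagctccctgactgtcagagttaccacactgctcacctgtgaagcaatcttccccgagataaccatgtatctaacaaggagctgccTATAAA
Saa3, chr7:46715671-46715926, minus strand: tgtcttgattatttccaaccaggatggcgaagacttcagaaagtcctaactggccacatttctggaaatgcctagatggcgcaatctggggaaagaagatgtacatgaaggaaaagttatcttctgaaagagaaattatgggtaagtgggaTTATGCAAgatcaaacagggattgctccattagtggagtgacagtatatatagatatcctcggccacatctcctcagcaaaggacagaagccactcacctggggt
Lcn2, chr2:32387734-32387989, minus strand: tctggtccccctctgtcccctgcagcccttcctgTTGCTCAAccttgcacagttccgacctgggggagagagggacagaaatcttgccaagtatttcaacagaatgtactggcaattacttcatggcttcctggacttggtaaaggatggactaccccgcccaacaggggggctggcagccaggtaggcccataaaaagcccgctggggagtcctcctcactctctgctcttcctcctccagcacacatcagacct

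The C/EBP-like letters stood in *S100a9* (first base at -236 from the start), *Lcn2* (-216) and, on the other strand, *Saa3* (-99), and in 9.75% of 32851 RefSeq mouse promoters of this length. TATAAA stood 30 bases before the start in *S100a8* (-30) and at the annotated start itself in *S100a9*, against 12.6% of the promoters. An AP-1-like pattern (TGANTCA, both strands, in 6.94% of promoters) was found in none of the 4 windows. A match is a description of letters and not a site.

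The libraries held 528 to 3294 cells and 2283740 to 23496509 UMIs, with median depths of 3634 to 8055 UMIs per cell. Levels are UMIs of a gene per 1000000 UMIs of the cells summed (CPM), and every interval is a 95% interval that covers counting error only. Cells were assigned by marker gates that leave the 4 genes out: 9242 of 11207 cells (82.5%) passed 1 of 14 gates. As the markers assigned the cells, their own levels do not test the gates, and markers of other lists were high in some of them: at least 2-fold above the other cells were 62.5% of the NK list in T cells, 62.5% of the mural list in endothelial cells and 50% of the neutrophil list in monocyte/macrophage-gated cells. Only 25 cells passed the neutrophil gate, which rests on 6 markers (*Csf3r*, *Mmp9*, *Il1r2*, *Hdc*, *Trem1* and *Clec4d*). These numbers are of the first run of columns in each file, up to the first break in barcode order. A further 9062 columns follow, which bring the files to 2304, 4855 and 6095 columns for control TAM on day 0 and at 5 and 14 dpi, and to 1056, 4309 and 1650 for hypothyroid TAM. The number of cells that the study gives for a sample is close to all columns of its file for the uninjured libraries and the earlier time after injury, and above them for the later time under both diets, so the first runs hold only part of the cells it counted. Some cells, however, stand in the files of different conditions. Of the first-run cells, 528 of the 2428 of the control library at 5 dpi stood again in the second run of the uninjured hypothyroid file, and 1152 of the 1650 of the hypothyroid library at 14 dpi stood again in the second run of the uninjured control file. The first runs shared 12 barcodes with each other, with 0 cells of equal values. The results that follow are given for the first runs. The ratios of the 4 genes between diets over all cells, in FAPs and in monocyte/macrophage-gated cells are given also with all columns and without the shared cells, and the ratios of other genes for the first runs alone.

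All 4 genes were highest in the control library at 5 dpi. *S100a8* summed to 1 UMI on day 0 (0.169 CPM), 1477 at 5 dpi (95.7 CPM, 90.9-101) and 46 at 14 dpi (2.79 CPM) in control TAM, and to 14 (6.13 CPM), 126 (5.36 CPM) and 10 (0.762 CPM) in hypothyroid TAM. *S100a9* gave 4, 2172 (141 CPM) and 87 UMIs in control TAM, and 13, 87 (3.70 CPM) and 0 in hypothyroid TAM. *Saa3* gave 2, 3299 (214 CPM) and 29 UMIs in control TAM, and 0, 131 (5.58 CPM) and 1 in hypothyroid TAM. Both alarmins and *Saa3* thus stood at 6.13 CPM or less in each library other than control TAM at 5 dpi. *Lcn2* gave 19, 570 (36.9 CPM) and 34 UMIs in control TAM, and 16, 397 (16.9 CPM) and 65 in hypothyroid TAM, so it was the member with the smallest gap between diets at 5 dpi. In library-wide values such as these, fewer cells of a type and less RNA per cell cannot be told apart.

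In control TAM, *Saa3* was 634-fold (175-5237) and *S100a8* 568-fold (102-22436) above day 0 at 5 dpi, *S100a9* 209-fold (81.4-767) and *Lcn2* 11.5-fold (7.31-19.3). Of the 12280 genes compared, 23.2% were at least 2-fold higher. In hypothyroid TAM the same ratio was 0.875 (0.502-1.65) for *S100a8*, 0.650 (0.361-1.27) for *S100a9*, at least 4.24 for *Saa3* and 2.41 (1.47-4.26) for *Lcn2*, beside 15.8% of 12184 genes at least 2-fold higher and 20.3% at least 2-fold lower. Of the 131 hypothyroid *Saa3* UMIs at 5 dpi 86 were in 1 cell, and without the richest cell of each library the bound was 1.46. Of the alarmin UMIs at 5 dpi 65 and 79 were in 1 cell. Without the richest cell of each library *S100a8* stood at 0.494 (0.264-1.01) and *S100a9* at 8 UMIs against 11. From 5 to 14 dpi in control TAM, *S100a8* was 34.3-fold, *S100a9* 26.6-fold, *Saa3* 121-fold and *Lcn2* 17.9-fold lower, where 17.4% of 12394 genes were at least 2-fold lower. Without the richest cell of each library, 23 of the 29 UMIs at 14 dpi for *Saa3*, its fall was 438-fold, and that of *S100a9* 40.5-fold. In hypothyroid TAM *Saa3* was 73.1-fold (12.9-2911) lower at 14 dpi than at 5 dpi, from 131 UMIs to 1, *S100a9* at least 16.2-fold, *S100a8* 7.03-fold and *Lcn2* 3.41-fold, where 9.66% of 12306 genes were at least 2-fold lower. Without the richest cell of each library *Saa3* was at least 8.38-fold lower, *S100a8* 4.25-fold and *Lcn2* 3.72-fold, and *S100a9* had 8 UMIs against 0.

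Between diets at 5 dpi, the hypothyroid library stood 17.8-fold (14.9-21.6) below control for *S100a8*, 38.0-fold (30.7-47.6) for *S100a9*, 38.3-fold (32.2-46.0) for *Saa3* and 2.19-fold (1.92-2.49) for *Lcn2*. Of 12267 genes, 19.4% were at least 2-fold lower and the median ratio was 0.749 (log2 -0.42). Relative to that median, *S100a8* was 13.4-fold, *S100a9* 28.5-fold, *Saa3* 28.7-fold and *Lcn2* 1.64-fold lower. These ratios depend on which columns are counted. With all columns of each file they were 0.653 for *S100a8*, 0.539 for *S100a9*, 0.442 for *Saa3* and 1.30 for *Lcn2*, against 0.0560, 0.0263, 0.0261 and 0.458 in the first runs, so the *Lcn2* ratio passed to the other side of 1. In the hypothyroid file at 5 dpi, the third run of 1626 columns held 1839 *Saa3* UMIs (172 CPM), 526 of *S100a8* and 577 of *S100a9*, and the second run of 528 columns held 707 of *S100a8* (304 CPM) and 1011 of *S100a9*. Single cells carried most of the second run, with 657 of the 707 and 954 of the 1011 each in 1 cell. These single cells are part of the 1359 *S100a8* and 1675 *S100a9* hypothyroid UMIs behind the all-column ratios. The richest cell of the third run held 456 *Saa3* UMIs. Without the cells that stand in another file too, the ratios at 5 dpi were 0.0466, 0.0213, 0.0253 and 0.409 in the same order. At 14 dpi the first-run ratio was 0.273 (0.123-0.548) for *S100a8*, at most 0.0433 for *S100a9*, 0.0433 (0.00106-0.261) for *Saa3* and 2.40 (1.56-3.75) for *Lcn2*, beside 6.20% of 12161 genes at least 2-fold lower and 4.15% at least 2-fold higher. With all columns these were 0.214, at most 0.0490, 0.0304 and 1.37, and without the shared cells 0.176, at most 0.140, 0.140 and 2.98. In the uninjured libraries no ratio is called, since neither library reached 20 UMIs of any member.

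**Figure D1:**
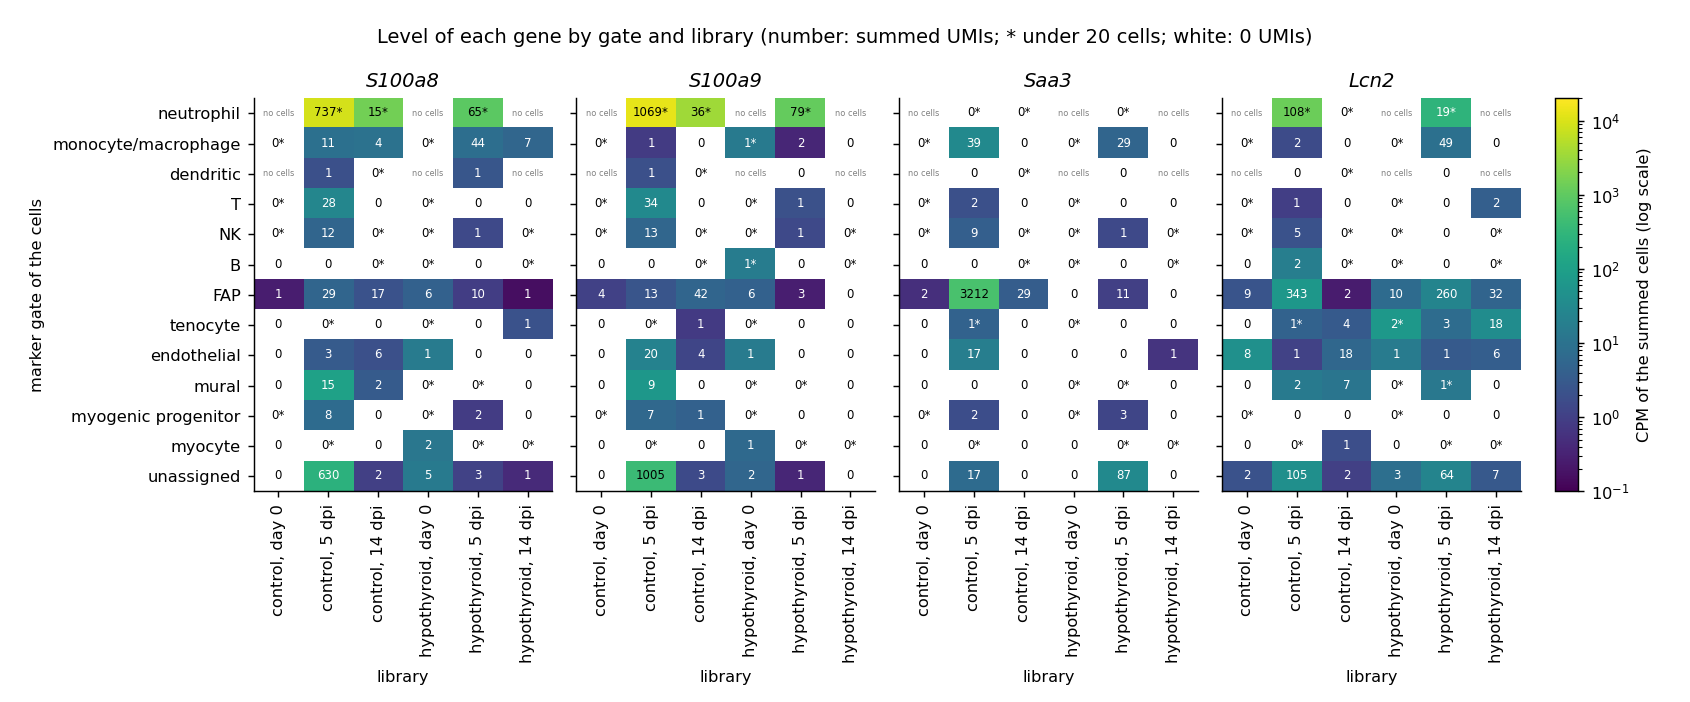
Heat map of CPM (log color scale) in the summed cells of each marker gate (rows) and library (columns), 1 panel per gene, with the summed UMIs printed in each field; the glial and mast gates are not drawn. *S100a8* and *S100a9* lie mostly in the neutrophil gate and among unassigned cells at 5 dpi in control TAM, *Saa3* in FAPs of the same library (3212 UMIs), and *Lcn2* in FAPs of both diets at 5 dpi (343 and 260 UMIs).

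The alarmins were held by very few cells. Cells with at least 10 UMIs of *S100a8* and *S100a9* together numbered 33 of 11207 (0.294%) and held 88.9% of all *S100a8* and 96.4% of all *S100a9* UMIs. The control library at 5 dpi held 30 of them (1.24% of its cells), the control library at 14 dpi 2 and the hypothyroid library at 5 dpi 1, and the other libraries held 0. The richest cell had 306 *S100a8* and 425 *S100a9* UMIs, and 70 of *Lcn2*, among its 4055 UMIs. The lowest cell inside the threshold had 10 UMIs and the highest outside had 9; 9 cells had 5 to 9 UMIs and 185 had 1 to 4. Of the 33 cells, 32 held both genes, 14 also held *Lcn2* (216 UMIs in all), and the 33 held 0 *Saa3* UMIs. Their median depth was 2066 UMIs, and 6 held under 1000.

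These cells were chosen by the alarmins, and their other genes are given as a description. All 33 had a UMI of at least 1 neutrophil marker, 18 of at least 2 and 12 of at least 3. By gate 11 were neutrophil, 14 unassigned and 8 in other gates. In the 30 of control TAM at 5 dpi, *Clec4d*, a C-type lectin of myeloid cells, was at 924 CPM against 82.3 in the other 2398 cells, *Mmp9*, a gelatinase stored in neutrophil granules, at 185 against 14.4, and *Csf3r*, the G-CSF receptor, at 108 against 3.46. *Hdc*, histidine decarboxylase, was at 100 against 6.47 CPM, *Trem1* at 46.2 against 2.81, and *Il1r2*, an IL-1 decoy receptor, at 38.5 against 15.4, the last with overlapping intervals. *Chil3*, a chitinase-like protein of myeloid cells, was at 870 CPM, but in 5 of the 30 cells. The granule genes *Ltf*, *Camp*, *Ngp*, *Elane*, *Mpo*, *Prtn3* and *Ctsg* were not analysed here.

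Neutrophil-gated cells made up 17 of 2428 cells (0.70%, 0.408-1.12) in control and 6 of 2155 (0.278%, 0.102-0.605) in hypothyroid TAM at 5 dpi, with overlapping intervals. In control TAM, 9 of the 17 had *S100a8* (737 UMIs, 8968 CPM), 10 had *S100a9* (1069 UMIs) and 4 had *Lcn2* (108 UMIs), while in hypothyroid TAM 1 of the 6 held all 65 *S100a8* and 79 *S100a9* UMIs. The 6 neutrophil markers summed over all cells at 5 dpi reached 136 CPM in control TAM and 144 CPM in hypothyroid TAM, with 0 markers at 0 UMIs in either library. Much of that sum lay outside the alarmin-rich cells, as the monocyte/macrophage gate alone held 903 of 2093 marker UMIs in control and 2466 of 3382 in hypothyroid TAM. The part that the number of neutrophils captured has in the alarmin ratios was not tested. With the 33 alarmin-rich cells left out, the ratio of hypothyroid to control at 5 dpi was 0.479 (0.339-0.675) for *S100a8*, 0.104 (0.0427-0.222) for *S100a9* and 0.668 (0.577-0.773) for *Lcn2*, and 0.0259 for *Saa3*. With the richest cell of each library left out, *S100a9* was at 0.00301 and *S100a8* at 0.0342.

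**Figure D2:**
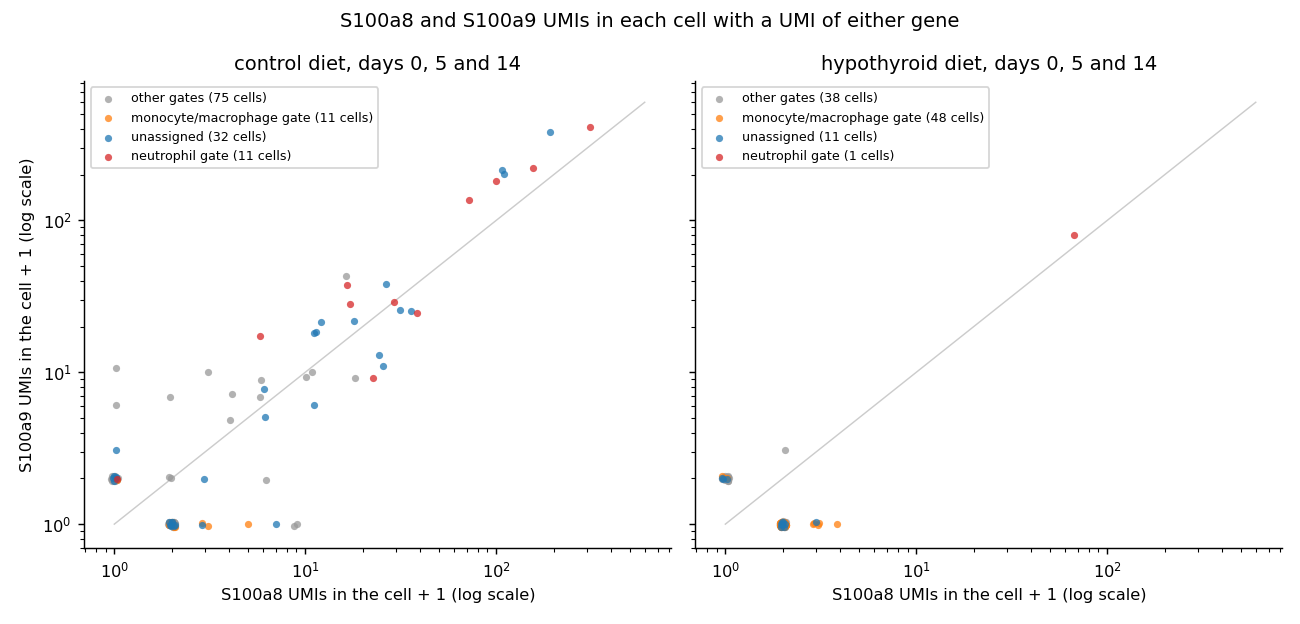
*S100a8* against *S100a9* UMIs (plus 1, log axes, with a small random shift) in each cell with a UMI of either gene, by diet with the 3 days together, colored by gate; the line marks equal counts. Control cells run up to 306 and 425 UMIs along the line, hypothyroid TAM has 1 such cell (65 and 79 UMIs), and its monocyte/macrophage-gated cells lie along the *S100a8* axis.

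The balance of *S100a8* and *S100a9* differed between cells. In the 30 rich cells of control TAM at 5 dpi, *S100a8* made up 39.6% (38.0-41.3) of the UMIs of the pair, and in the 1 rich hypothyroid cell 45.1%. In the other cells at 5 dpi it made up 62.4% (53.6-70.7) in control (83 UMIs against 50) and 88.4% (78.4-94.9) in hypothyroid TAM (61 against 8). Monocyte/macrophage-gated cells had little *S100a9*, while other control cells at 5 dpi outside the rich ones had both, with 12 and 13 UMIs in NK cells, 11 and 8 in T cells, and 3 and 10 in endothelial cells. A larger *S100a8* count was not particular to macrophages. Outside the rich cells it was 21 against 9 in control unassigned cells, 12 against 5 in FAPs and 6 against 1 in mural cells. Hypothyroid FAPs at 5 dpi held 10 and 3. Uninjured hypothyroid TAM held 14 *S100a8* and 13 *S100a9* UMIs, and the control cells at 14 dpi outside the rich ones 16 and 10. In the monocyte/macrophage gate at 5 dpi, hypothyroid TAM had 44 *S100a8* UMIs in 39 of 585 cells, with at most 3 in a cell, against 2 of *S100a9*, and control TAM had 11 in 9 of 206 cells against 1. At 14 dpi the hypothyroid gate held 7 *S100a8* and 0 *S100a9* UMIs in 139 cells. Cells with and without C1q chains, complement genes of macrophages, had overlapping *S100a8* intervals in the hypothyroid gate at 5 dpi, with 8.29 CPM (5.98-11.2) in 524 cells and 8.13 CPM (0.984-29.4, 2 UMIs) in 41. In the control gate the intervals overlapped too, with 9.03 CPM (3.32-19.7, 6 UMIs) and 1.99 CPM (0.0504-11.1, 1 UMI). Another 10 control cells with 1 chain held 4 UMIs. These counts are too low to order the cells.

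The share of monocyte/macrophage-gated cells with an *S100a8* UMI was 6.67% (4.78-9.0) in hypothyroid and 4.37% (2.02-8.13) in control TAM at 5 dpi, at median depths of 6807 and 4937.5 UMIs. FAPs of the same hypothyroid library, which should lack it, stood at 1.36% with a median of 13737 UMIs, and T cells at 0 of 105, which allows a share of up to 2.86%. Thinned to 1000 UMIs per cell, the macrophage shares were 0.534% (23 cells left out) and 1.0% (6 left out), near that of 1 UMI, so no order is read from them. The gate's level stood at 8.15 CPM (5.92-10.9) and 9.09 CPM (4.54-16.3), a ratio of 0.896 (0.455-1.92), where 10.4% of 9199 genes were at least 2-fold higher and 12.0% at least 2-fold lower. With all columns the ratio was 1.61 (0.874-3.26) and without the shared cells 0.92 (0.429-2.26). With a gate of 2 markers in place of 3 the ratio was 0.0941 (0.0651-0.134), since alarmin-rich cells then entered the control gate (*S100a9* 201 UMIs against 2). *S100a8* levels in the other control gates at 5 dpi with at least 20 cells ran from 108 CPM in 25 mural cells (15 UMIs) and 27.0 in T cells to 9.09 in monocyte/macrophage-gated cells, 7.07 in myogenic progenitors, 5.47 in FAPs, 5.24 in NK cells, 3.33 in endothelial cells and 1.98 in dendritic cells, with 0 UMIs in 56 B cells. From monocyte/macrophage-gated to dendritic cells the intervals of neighbors overlapped. The order rests in part on alarmin-rich cells in these gates, which held 9 of the 15 UMIs in mural cells (1 cell), 17 of the 28 in T cells (3 cells), 17 of the 29 in FAPs (1 cell) and 5 of the 8 in myogenic progenitors (1 cell). Without them the levels were 48.0 CPM (17.6-105) in mural cells, 10.7 (5.35-19.2) in T cells, 2.68 (0.553-7.84) in myogenic progenitors and 2.27 (1.17-3.96) in FAPs, while the macrophage and NK gates held 0 such cells.

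*Saa3* was a FAP transcript in control TAM at 5 dpi. FAPs held 3212 of its 3299 UMIs there (606 CPM, 585-627), in 41 of 373 cells (11%, 8.0-14.6). FAPs of the other libraries held 2 UMIs in 660 cells on day 0 and 29 in 1380 cells at 14 dpi in control TAM, 23 of the latter in 1 cell, and 0 in 277, 11 in 733 and 0 in 680 cells in hypothyroid TAM on day 0 and at 5 and 14 dpi. No hypothyroid FAP of the first runs held more than 7 UMIs, against 842 in control. With all columns, 1254 hypothyroid FAPs at 5 dpi held 1529 UMIs. The next levels in control TAM at 5 dpi were 32.2 CPM (22.9-44.1) in monocyte/macrophage-gated cells, 31 of whose 39 UMIs were in 1 cell, and 18.9 CPM (11-30.2) in endothelial cells, with overlapping intervals. *Saa3* was seen in 3 of 132 endothelial cells (2.27%, median 4208.5 UMIs) and 2 of 506 NK cells (0.395%, 3337.5 UMIs), against a FAP median of 12606 UMIs. Thinned to 1000 UMIs, the share of FAPs with *Saa3* was 7.61% (5.12-10.8, 5 cells left out) in control and 0.140% (20 left out) in hypothyroid TAM.

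The FAP level in hypothyroid TAM at 5 dpi was 0.00170 of control (0.000847-0.00304), 589-fold lower, and the lowest ratio among the 11011 genes compared in FAPs, of which 10.4% were at least 2-fold lower. The median gene stood at 0.795 (log2 -0.33), and relative to it *Saa3* was 468-fold lower. The interval treats UMIs as independent, but 6 control cells held 70.8% of the UMIs and 1 held 26.2%. Without the richest cell of each library the ratio was 0.000834. With all columns of each file it was 0.342 (0.322-0.364), and without cells that stand in another file 0.00166. At 14 dpi the ratio was at most 0.131, where 6.55% of 10648 genes were at least 2-fold lower, at most 0.255 with all columns and at most 0.440 without the shared cells. In the first run of hypothyroid TAM at 5 dpi *Saa3* UMIs lay mostly outside FAPs. There 86 of 131 were in 1 unassigned cell, and 29 in monocyte/macrophage-gated cells (5.37 CPM, 0.167 of the control level, 0.0994-0.276). With all columns that macrophage ratio was 1.26 (0.922-1.74), on the other side of 1, and without the shared cells 0.128. The place of *Saa3* changed too: with all columns FAPs held 1529 of the 1977 hypothyroid UMIs at 5 dpi. Over time in control FAPs, *Saa3* was 1168-fold (323-9645) above day 0 at 5 dpi, where 19.7% of 10651 genes were at least 2-fold higher, and 167-fold lower again at 14 dpi, where 15.7% of 11069 genes were at least 2-fold lower.

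**Figure D3:**
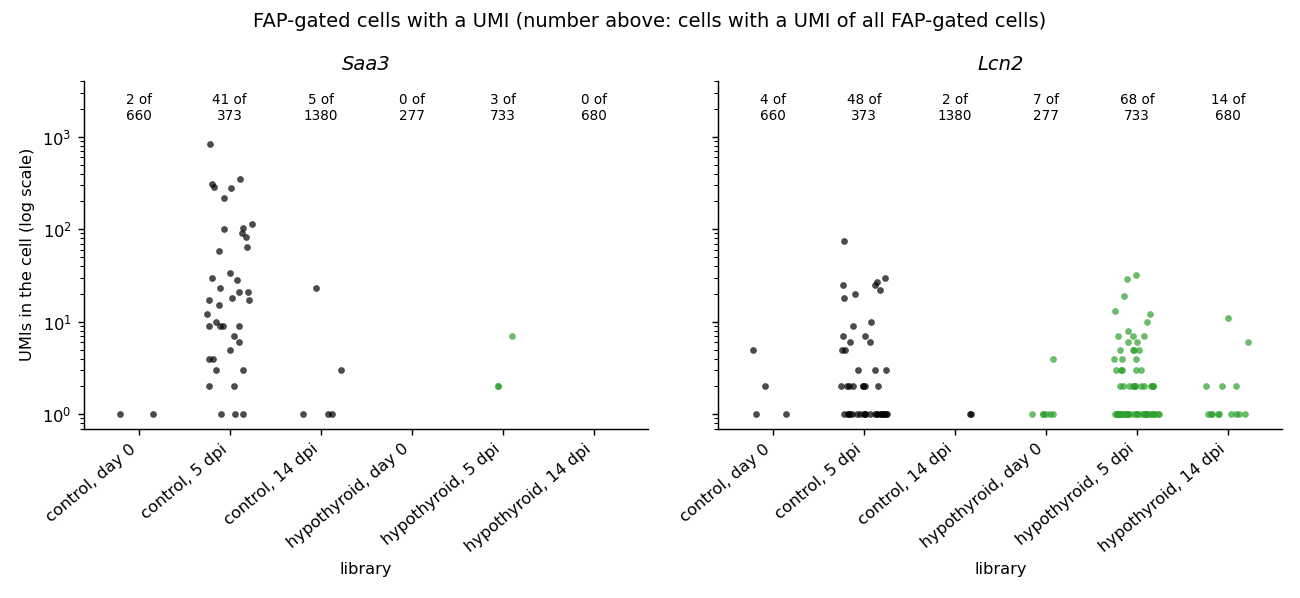
*Saa3* (left) and *Lcn2* (right) UMIs (log axis) in each FAP-gated cell with at least 1, by library; above each column is the number of such cells out of all FAP-gated cells. In the first runs of columns *Saa3* reaches 842 UMIs in control TAM at 5 dpi (41 of 373 cells) and 7 in hypothyroid TAM (3 of 733), while *Lcn2* was seen in 48 of 373 and 68 of 733.

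Among control FAPs at 5 dpi, *Saa3* was at 1120 CPM in the 126 Pi16-positive cells (progenitors of the adventitia), 435 CPM in 36 Smoc2-positive cells, 345 CPM in the 174 cells with injury matrix genes (*Cthrc1*, *Tnc* and *Lrrc15*) and 42.1 CPM in the other 37. The share of cells with *Saa3* had overlapping intervals, at 11.1% (6.21-17.9), 13.9% (4.67-29.5), 11.5% (7.16-17.2) and 5.41% (0.661-18.2) in the same order. Single cells carried much of the levels, with 842 of 2079 UMIs in 1 Pi16-positive and 83 of 114 in 1 Smoc2-positive cell, and without the richest cell the first 3 groups stood at 680, 125 and 250 CPM. In hypothyroid TAM the Pi16-positive and injury matrix cells were at 2.32 and 0.563 CPM. In the first run the low *Saa3* level was thus present in both of the larger FAP groups.

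Control FAPs with at least 5 *Saa3* UMIs (32 cells) were set beside those with none (332 cells); 9 cells had 1 to 4 UMIs. The *Saa3*-rich cells were deeper, with a median of 21975.5 against 11716.5 UMIs. As the cells were chosen by *Saa3*, the folds are a description of this library. *Lcn2* was 23.9-fold higher (18.3-31.6, 272 against 70 UMIs), where 2.13% of 9995 genes were at least 2-fold higher and 14.3% at least 2-fold lower. Among acute-phase genes *Hp*, the hemoglobin scavenger haptoglobin, was 13.7-fold higher, *Ptx3*, a soluble pattern recognition protein, 3.92-fold, *C3*, the central complement component, 2.68-fold, and *Cp* 1.86-fold. *Hp* was seen in 14 of the 32 cells and *Cp* in 13, while *Ptx3* and *C3* were seen in 31 each. Neutrophil chemoattractants divided: *Csf3*, which encodes G-CSF, was 7.2-fold and *Cxcl5* 4.31-fold higher, while *Cxcl1*, *Cxcl2* and *Cxcl3* were at 1.29, 1.53 and 1.06. *Csf3* was seen in 9 of the 32 cells and *Cxcl5* in all 32. Of the inducers, *Il6* was 2.85-fold and *Cebpb* 1.72-fold higher, *Il1b* was at 0.0369 (1 against 167 UMIs), and *Cebpd*, *Nfkbiz* and *Socs3* were at 0.695, 1.07 and 0.616. The share of cells with *Il1b* was alike, at 3.1% and 3.3%, so its ratio rests on a small part of the cells without *Saa3*. *S100a8* had 0 UMIs in the 32 cells. Chosen after values were seen, *Il13ra2* (52.1-fold), *Cxcl13* (33.2-fold), *Slpi* (10.6-fold), *Serpinb2* (6.18-fold), *Sod2* (5.48-fold) and *Mmp3* (5.37-fold) were also higher in the sum of these cells. *Sod2* was seen in all 32, and *Il13ra2* and *Mmp3* in 19 each. *Serpinb2* was seen in 11, *Cxcl13* in 10 and *Slpi* in 3 of the 32.

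**Figure D4:**
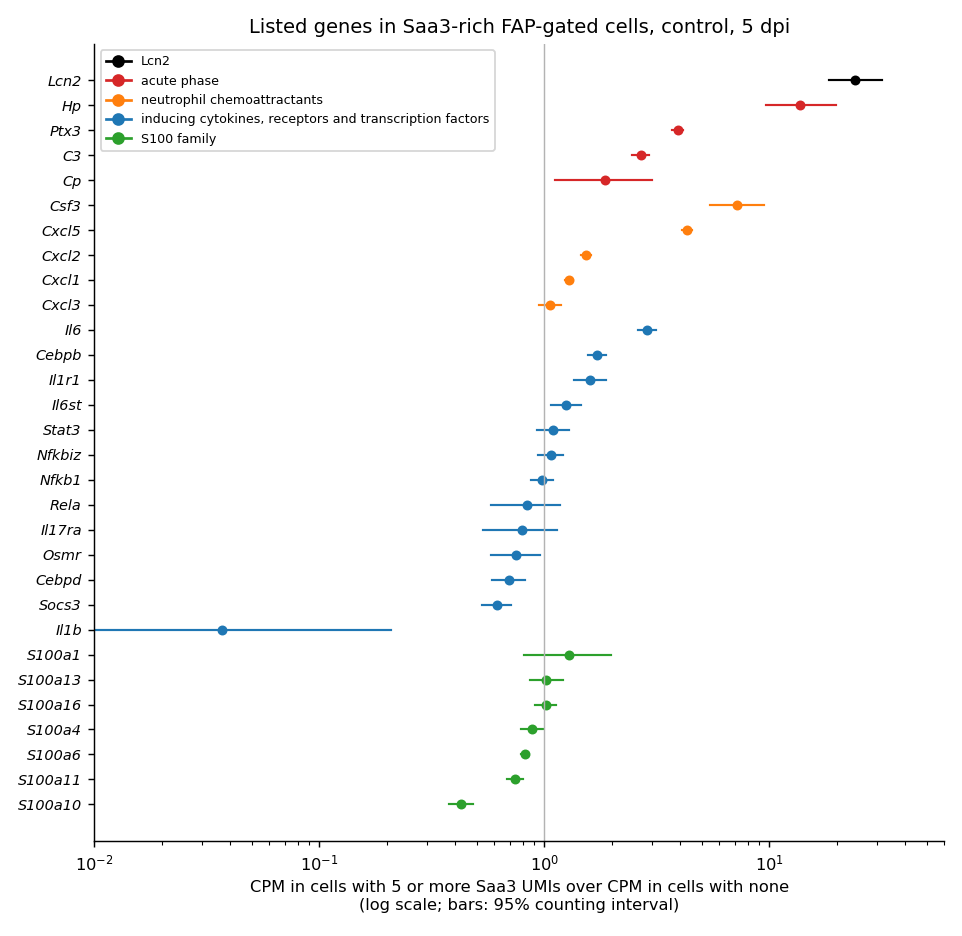
CPM of listed genes in the 32 control FAPs at 5 dpi with at least 5 *Saa3* UMIs over the 332 with none (log axis; bars are 95% counting intervals), grouped by gene list. *Lcn2* (23.9) and *Hp* (13.7) lie furthest right, the S100 family genes lie between 0.427 and 1.29, and *Il1b* lies at 0.0369. *Il1b* was seen in a like share of both groups of cells, 3.1% and 3.3%.

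In the first runs at 5 dpi, FAPs held 60.2% of *Lcn2* UMIs in control and 65.5% in hypothyroid TAM. FAPs held 9 UMIs on day 0 (2.34 CPM), 343 at 5 dpi (64.7 CPM, 58.0-71.9) and 2 at 14 dpi (0.25 CPM) in control TAM, and 10 (7.28 CPM), 260 (24.3 CPM, 21.5-27.5) and 32 (5.09 CPM) in hypothyroid TAM. At 5 dpi it was seen in 48 of 373 control FAPs (12.9%) and 68 of 733 hypothyroid FAPs (9.28%), with at most 75 and 32 UMIs in a cell. Thinned to 1000 UMIs, the shares were 3.26% (1.70-5.63) and 1.40% (0.675-2.56), and NK cells of control TAM were at 0.40%. The ratio between diets was 0.376 (0.319-0.443), or 2.66-fold lower, and 0.473 relative to the median gene. With all columns it was 0.736 (0.635-0.854), and without the shared cells 0.366. FAPs held 360 of 585 *Lcn2* UMIs in control and 367 of 1025 in hypothyroid TAM at 5 dpi with all columns. Relative to day 0 it was 27.7-fold higher at 5 dpi in control FAPs (14.4-61.1) and 3.34-fold higher in hypothyroid FAPs (1.79-7.05), where 19.7% and 15.9% of genes were at least 2-fold higher. At 14 dpi the ratio was 20.3 (5.18-175), the highest of 10648 genes, of which 1.39% were at least 2-fold higher, but from 2 UMIs against 32, and 2.29 with all columns. The 32 UMIs were in 14 of 680 cells. Of these cells 199 stand in no other file, and they held 9 UMIs (4.79 CPM, 2.19-9.09).

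Outside FAPs, unassigned cells held 105 of the 570 *Lcn2* UMIs of control TAM at 5 dpi (18.4%, 12 cells) and 64 of the 397 of hypothyroid TAM (16.1%, 9 cells). In control TAM 86 of the 105 were in 6 alarmin-rich cells, and in hypothyroid TAM 37 of the 64 were in 1 cell, the one with 86 *Saa3* UMIs. Neutrophil-gated cells held 108 UMIs in control TAM at 5 dpi (1314 CPM, 4 of 17 cells) and 19 in hypothyroid TAM (2 of 6 cells). Monocyte/macrophage-gated cells held 2 UMIs in control and 49 in hypothyroid TAM at 5 dpi, a ratio of 5.49 (1.44-46.6), with 30 of the 49 in 1 cell. With all columns the ratio was 8.36 (2.78-41.2, 3 UMIs against 101) and without the shared cells at least 2.73, and without the richest cell neither pool reached 20 UMIs. At 14 dpi, 53 hypothyroid tenocytes held 18 UMIs (10 in 1 cell) and 197 control tenocytes held 4, and 660 control endothelial cells held 18 in 9 cells.

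*Lcn2* and *Saa3* were seen in the same control FAPs. At 5 dpi *Lcn2* was found in 22 of the 41 FAPs with *Saa3* (53.7%, 37.4-69.3) and in 26 of the 332 without (7.83%, 5.18-11.3), at median depths of 21418 and 11716.5 UMIs. In hypothyroid TAM it was found in 67 of the 730 FAPs without *Saa3* (9.18%). FAPs with at least 3 *Lcn2* UMIs numbered 19 in control and 24 in hypothyroid TAM at 5 dpi. In both, *Hp* was higher than in FAPs without *Lcn2* (176 against 11.9 CPM in control, 183 against 19.3 in hypothyroid TAM), as was *C3* (1491 against 294, and 1312 against 288). *Saa3* was at 5985 against 121 CPM in the control cells and at 0 UMIs in the 24 hypothyroid cells. *Lbp*, the lipopolysaccharide-binding protein, chosen after values were seen, was at 688 against 164 CPM in control and 346 against 45.6 in hypothyroid TAM. Summed muscle fiber genes were at 369 against 678 CPM in the control cells and 2219 against 153 in the hypothyroid cells, and their part in these values was not tested. *Lcn2* was at 116 CPM (101-133) in Pi16-positive and 32.5 CPM in injury matrix cells of control TAM, and at 53.5 and 12.8 CPM in hypothyroid TAM. The Pi16-positive intervals overlapped those of smaller FAP groups, as the Smoc2-positive cells of control TAM stood at 114 CPM (77.2-163, 25 of 30 UMIs in 1 cell), and FAPs of no subset in hypothyroid TAM at 37.8 CPM (16.3-74.5) against 53.5 (45.5-62.4).

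**Figure D5:**
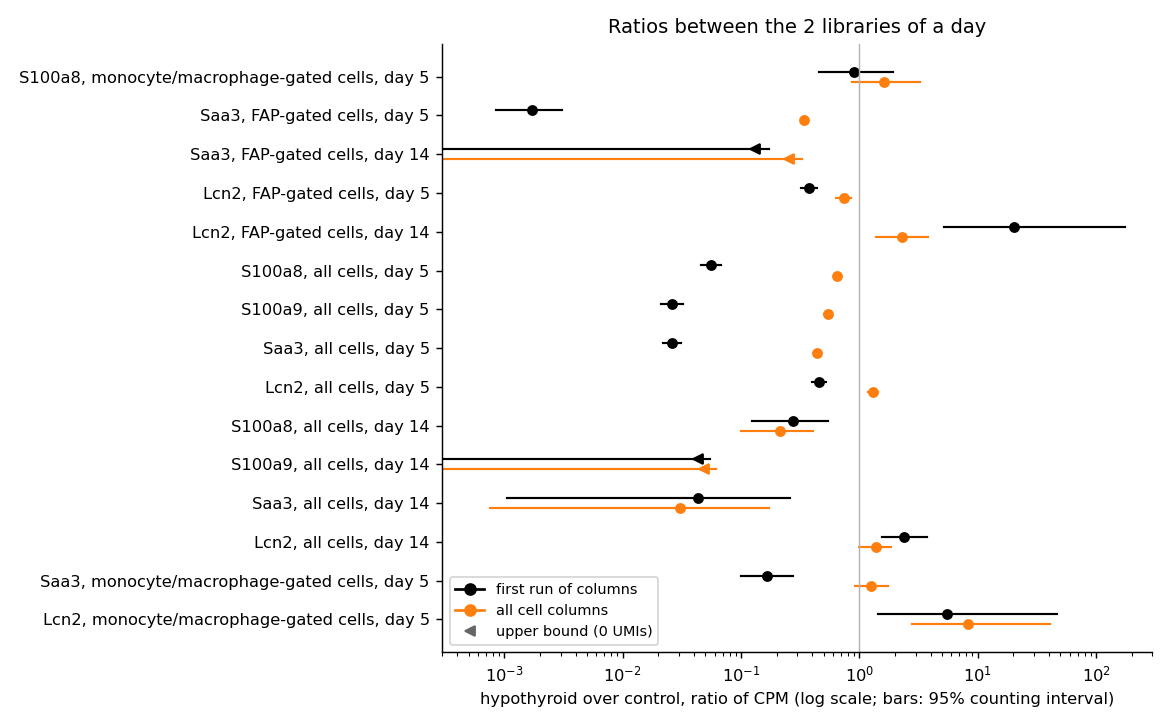
Ratio of hypothyroid to control CPM at 5 and 14 dpi (log axis; bars are 95% counting intervals, arrowheads are upper bounds where hypothyroid cells held 0 UMIs) for the first run of columns (black) and for all columns (orange). At 5 dpi the all-column ratios lie nearer to 1 for *Saa3* in FAPs (0.342 against 0.00170), and *Lcn2* over all cells and *Saa3* in monocyte/macrophage-gated cells move across 1, from 0.458 to 1.30 and from 0.167 to 1.26.

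Receptors and inducers of these genes were read from lists. In FAPs at 5 dpi, 3 of the 9 measured S100 relatives were at least 2-fold higher in hypothyroid TAM (*S100a1* 2.08-fold, *S100a3* 2.08-fold and *S100b* 6.57-fold) and 0 lower, with a list median of 1.55. Of the 4 measured genes of the acute-phase list 0 moved by 2-fold, with *Hp* at 1.06, *Cp* at 0.880, *C3* at 0.843 and *Ptx3* at 0.782, where *Saa3* was at 0.00170. The list leaves out *Lbp* and *Serpina3n*, chosen after values were seen. In FAPs without *Lcn2* at 5 dpi, *Lbp* was at 164 CPM in control and 45.6 in hypothyroid TAM, and *Serpina3n* at 114 and 52.7. Of 5 neutrophil chemoattractants, 3 were at least 2-fold higher (*Cxcl3* 3.67-fold, *Cxcl1* 2.66-fold, *Cxcl2* 2.35-fold) and *Csf3* was at 0.363. Of 15 inducing cytokines, receptors and transcription factors, 2 were at least 2-fold higher (*Tnf* 8.43-fold from 2 UMIs, *Il1a* at least 3.31-fold) and 3 lower (*Il1b* 0.325, *Socs3* 0.444, *Il6st* 0.494), with *Stat3* at 0.506, *Cebpb* at 1.09 and *Il6* at 1.04 and a median of 0.726. All FAP genes had a median of 0.795, with 3.12% at least 2-fold higher and 10.4% at least 2-fold lower.

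Of 5 alarmin receptor and signaling genes in FAPs, *Ly96*, which encodes the TLR4 partner MD-2, was 2.31-fold higher, and *Tlr4* and *Cd14* were at 1.07 and 0.881. Of the SAA receptors with enough UMIs, 1 of 4 passed 2-fold, with *Scarb1*, a lipoprotein receptor, at 0.476. The LCN2 receptor gene *Slc22a17* was at 1.75. In monocyte/macrophage-gated cells *Tlr4* was at 0.315 and *Cd14* at 1.66, *Cxcl1* was 27.6-fold higher and *Cxcl5* at least 77.8-fold higher (0 against 1042 UMIs). *Ager*, *Saa1*, *Saa2*, *Saa4*, *Orm1*, *Orm2*, *Fpr1*, *Lrp2*, *S100a5* and *S100a14* were not analysed here.

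Likeness of pattern was measured as Pearson r of log2(CPM + 1) over 45 combinations of gate and library with at least 20 cells, which share libraries and depth, so it is a description. The neutrophil gate never reached 20 cells and is not among them. *S100a8* and *S100a9* had r = 0.73 with each other. The genes most like *S100a8* were *Il36g* (0.74), *Slpi* (0.67), *Clec4n* (0.66), *Arg2* (0.64) and *Slfn4* (0.64), and those most like *S100a9* were *Il36g* (0.64), *Rad54l* (0.57), *Efr3a* (0.57), *Accs* (0.53) and *Rad51d* (0.52). Those most like *Saa3* were *Serpinb2* (0.66), *Il13ra2* (0.65), *Hp* (0.58), *Cxcl13* (0.56) and *Dio3* (0.56), the last of which encodes the deiodinase that inactivates thyroid hormone. Those most like *Lcn2* were *Slc50a1* (0.69), *Leprot* (0.68), *Hic1* (0.65), *Nucb1* (0.65) and *Slc27a3* (0.63).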

How the data were processed

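The authors aligned the reads with Cell Ranger within Partek and build mm39, removed cells outside limits on UMIs, detected genes and mitochondrial reads, and deposited log2 values per gene and cell, log2(CPM + 1). Here each cell's most frequent value above 0, taken back to CPM, was read as 1 UMI, which gave whole UMIs (within 0.05 of a UMI or 0.2% of the value) for 99.9% of values above 0. UMIs were summed by gate and library and scaled to CPM. With 1 library per group no test was run. Poisson intervals (levels), conditional binomial intervals (ratios) and Clopper-Pearson intervals (shares) are exact, at 95%, and cover counting error only. A count of 0 was taken to allow 3. A ratio is given where the higher pool held at least 20 UMIs and each pool at least 20 cells, and any other ratio in the text, or from 1 to 3 UMIs, is printed with its counts or interval.

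A cell passed a gate with at least 3 markers at or above their mean CPM, and as a myocyte with at least 10% of its UMIs in muscle fiber genes; a cell went to the list with the largest share of such markers, and ties were left unassigned. This scoring rule was set after the data were seen. The members, marker lists and gene lists were chosen with earlier results of these data known. The genes named are the 4 members, the listed genes counted, and the 5 genes most like each member among those with at least 100 UMIs, and other genes are said to be chosen after their values were seen. Doublets were not called, and 1146 cells reached the gate minimum of more than 1 lineage. Of the 20269 cell columns 9062 lie in later runs, and 1680 stand in the files of different conditions. The ratio script was checked on simulated counts of the FAP comparison at 5 dpi: 95.7% of 10268 intervals held the true ratio, and for 50 genes each, 94.0% of 0.5-fold and 98.0% of 2-fold changes fell on the right side of 1. The counts were drawn as Poisson, the model of the intervals, so spread between cells or mice was no part of this check. Python 3.11.15, NumPy 2.4.6, SciPy 1.17.1, pandas 2.3.3 and Matplotlib 3.10.9 were used. Alternatives were the smallest value as 1 UMI, all columns, 2 markers per gate, cells of 1 lineage, mean log2 values, a filter at 1000 UMIs, thinning, the richest cell left out and, added after seeing the data, shared cells or alarmin-rich cells left out.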

Additional observations from a re-analysis of the deposited data

Results flagged for a closer look

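*Lcn2* lay on different sides of 1 between days and cell types, as read from 1 library per group, and none of these differences was tested. Over all cells the ratio of hypothyroid to control was 0.458 (0.401-0.521) at 5 dpi and 2.40 (1.56-3.75) at 14 dpi. With all columns of each file both were above 1, at 1.30 (1.17-1.44) and 1.37 (1.0-1.86), so the difference in side was not present there. In FAPs it was 0.376 (0.319-0.443) at 5 dpi and 20.3 (5.18-175) at 14 dpi, the latter from 2 and 32 UMIs, and with all columns 0.736 (0.635-0.854) and 2.29 (1.38-3.77). At 5 dpi it was 0.376 in FAPs and 5.49 (1.44-46.6) in monocyte/macrophage-gated cells, from 2 and 49 UMIs, 30 of the latter in 1 cell, and with all columns 0.736 and 8.36 (2.78-41.2).

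The columns after the first run of each file held all 4 genes. In the 7382 of them that stand in no first run, *S100a8* was at 31.8 CPM (30.2-33.6), *S100a9* at 41.5 CPM (39.6-43.4), *Saa3* at 44.4 CPM (42.5-46.5) and *Lcn2* at 17.0 CPM (15.8-18.2), each above its level in the uninjured control library (0.169, 0.674, 0.337 and 3.20 CPM). Each was below the control library at 5 dpi (95.7, 141, 214 and 36.9 CPM). These sums are uneven. In the hypothyroid file at 5 dpi, 1 cell held 657 of the 1381 *S100a8* UMIs and 1 cell 954 of the 1799 *S100a9* UMIs. The third run of that file held 1839 of the 1928 *Saa3* UMIs. The cell numbers that the study gives are close to all columns of the files for the uninjured libraries and the earlier time after injury, so they count such columns. As 1680 other later columns also stand in the first run of another condition, the condition of the 7382 was not assigned here.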

How the results depend on the processing

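No paired analysis was possible because each group has 1 library, with no replicate to pair or leave out. Of 12 planned ratios 5 had enough UMIs and cells, and thinning gave a value for *Saa3* in FAPs at 5 dpi alone. Over those 5, the 8 library-wide ratios and 2 more in monocyte/macrophage-gated cells, 74 alternative values were computed, of which 67 kept the direction. Of the 7 that did not, 5 are of *S100a8* in monocyte/macrophage-gated cells, whose interval holds 1: 1.61 with all columns, 1.02 with the smallest value as 1 UMI, 1.17 in cells of 1 lineage, 1.09 from mean log2 values and 1.03 without the richest cell. Counting all columns reversed *Lcn2* over all cells (1.30) and *Saa3* in monocyte/macrophage-gated cells (1.26) at 5 dpi, and moved *S100a8* (0.653), *S100a9* (0.539) and *Saa3* (0.442) over all cells at 5 dpi, *Lcn2* over all cells at 14 dpi (1.37), *Saa3* in FAPs (0.342 at 5 dpi, at most 0.255 at 14 dpi) and *Lcn2* in FAPs (0.736 and 2.29). It also gave values that the first runs had too few UMIs for: 7.70 for *S100a9* in monocyte/macrophage-gated cells at 5 dpi, and 1073 for *Saa3* and 8.14 for *Lcn2* in uninjured FAPs. With all columns, uninjured hypothyroid FAPs held 618 *Saa3* and 75 *Lcn2* UMIs. The 79 FAPs of the control library at 5 dpi that also stand among the uninjured hypothyroid columns held 618 and 65. The hypothyroid side of both uninjured values thus rests mostly on cells that also stand in the control library at 5 dpi. Means of log2 values, in which cells at 0 weigh most, gave 0.471 and 0.979 for *Saa3* and 0.810 and 1.10 for *Lcn2* in FAPs at 5 and 14 dpi. Gates of 2 markers gave 0.0941 for *S100a8* in monocyte/macrophage-gated cells. Without the richest cell of each library, *Saa3* in FAPs was at 0.000834 and, over all cells at 5 dpi, *S100a8* at 0.0342, *S100a9* at 0.00301 and *Saa3* at 0.0120, with *S100a9* at most 0.0818 at 14 dpi. Thinning gave 0.00427 for *Saa3* in FAPs. Without shared cells, *Saa3* in FAPs was at most 0.440 and *S100a9* over all cells at most 0.140 at 14 dpi. Without alarmin-rich cells, *S100a8* was at 0.479, *S100a9* at 0.104 and *Lcn2* at 0.668 over all cells at 5 dpi. Apart from what each alternative leaves out or adds, the cause was not tested. Depth limits the uninjured libraries and the macrophage *S100a8* values, which rest on 66 UMIs in all.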
